A study of Mus musculus with 4 samples.

Results

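The 6 genes described here, Grin1, Grin2a, Grin2b, Grin2c, Grin2d and Grin3a, encode subunits of the NMDA receptor, and they were taken by their symbols from the 32286 features of single-nucleus RNA libraries of the mouse brain. All 6 symbols were found. The libraries came from C57BL/6 mice at postnatal day 14. In the KO libraries Slc17a6-Cre was combined with Ago2 flox/flox, and in the WT libraries the same Cre driver was combined with Ago2 wt/wt, so that KO and WT both carried the driver. There were 2 KO and 2 WT libraries, made from nuclei of snap-frozen hemispheres with the 10x 3′ chemistry, version 3, and no treatment was given. Slc17a6 encodes the vesicular glutamate transporter Vglut2, so the deletion of Ago2, an Argonaute protein that carries microRNAs to their target transcripts, was directed at neurons that use or have used Vglut2. A Cre driver marks a lineage by its past as well as its present activity, and a hemisphere also holds many cells in which the driver is not active.

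NMDA receptors are glutamate-gated cation channels that open only when glutamate and a co-agonist are bound and the membrane is depolarised enough to relieve a block by magnesium. Grin1 encodes the obligatory GluN1 subunit, which binds the co-agonist. The GluN2 subunits, encoded by Grin2a to Grin2d, bind glutamate and set channel kinetics. In the rodent forebrain GluN2B dominates early and GluN2A is added during postnatal maturation, whereas GluN2C is known from mature cerebellar granule neurons and GluN2D from the diencephalon and interneurons. Grin3a encodes GluN3A, a subunit that lowers calcium permeability and magnesium block and is prominent in the early postnatal brain.

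On GRCm38, Grin1 lies on chromosome 2 from 25291181 to 25319187, Grin2a on chromosome 16 from 9567898 to 9995560, Grin2b on chromosome 6 from 135713233 to 136173511, Grin2c on chromosome 11 from 115249169 to 115267243, Grin2d on chromosome 7 from 45831883 to 45878378 and Grin3a on chromosome 4 from 49661611 to 49845744, all on the minus strand. The genes differ in length, with 460279 bp for Grin2b and 427663 bp for Grin2a against 18075 bp for Grin2c. Nuclear RNA holds unspliced transcripts, and whether intronic reads were counted is not given in the sources used here. Levels are therefore compared for 1 gene across nuclei and not between genes. Grin1 overlaps the antisense gene Grin1os, Grin2d overlaps Kdelr1 on the other strand and Ppp3r2 lies inside Grin3a on its strand; the strand setting of the counting is not given, so reads of these neighbours cannot be told apart from the subunit's own.

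Because Ago2 acts through the seed of a microRNA, the longest 3′ untranslated region of each subunit was searched for the 8-base match to 7 mature microRNAs, chosen after the data had been seen. The match is the complement of bases 2 to 8 followed by an A, on the transcript's strand. Only the 3′ untranslated region of Grin2a, 9929 nt long, held a match, and it held 1 each for 3 of the 7. That of Grin2b, the longest at 18865 nt, held none for any of the 7, nor did those of Grin1, Grin2c, Grin2d and Grin3a, which were between 402 and 3615 nt long. The 3 mature sequences (RefSeq, GRCm38.p6) follow with the seed in capitals.
miR-9-5p: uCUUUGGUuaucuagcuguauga
miR-128-3p: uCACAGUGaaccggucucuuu
miR-223-3p: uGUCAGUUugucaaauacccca
The windows around the Grin2a matches follow with the match in capitals. They lie on the minus strand of GRCm38 at chr16:9572448-9572469 for miR-9-5p, chr16:9572361-9572382 for miR-128-3p and chr16:9568926-9568947 for miR-223-3p.
Grin2a, miR-9-5p match: taaagcttcaaACCAAAGAttt
Grin2a, miR-128-3p match: tagggaacgggCACTGTGAcac
Grin2a, miR-223-3p match: tggaaagctcaAACTGACAact
Of 21037 3′ untranslated regions searched, 4.12% held the match ACCAAAGA, 5.14% held CACTGTGA and 2.94% held AACTGACA. These shares are over regions of every length. A longer region has more room for a match, so they are not the rate for a region of 9929 nt. The other searches used AGCAATAA for miR-137-3p, CTACCTCA for let-7a-5p, CTCAGGGA for miR-125b-5p and GACAATCA for miR-219a-5p, and between 1.74% and 4.59% of the regions held each of these. A match is a description of letters, and a region without one is not shown to escape a microRNA.

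The 17802 deposited barcodes gave 15450 nuclei after filtering, 3221 and 3168 in the KO libraries and 3235 and 5826 in the WT libraries, with median UMI counts of 2314 and 2377 in KO and 2413 and 3093 in WT; WT replicate 2 was the largest and deepest library. Clustering without the 6 subunit genes gave 28 clusters, which were named from marker genes. A class name below means nuclei that resemble that type by its markers. The glutamatergic class held the upper-layer and deep-layer cortical clusters, in which Slc17a6 itself was at 15.7 and 5.22 CPM over all libraries, against 145 CPM in a small thalamic or midbrain cluster, 74.8 CPM in immature granule neurons and 72.6 CPM in cluster 7. Cluster 7 is a mixed neuronal cluster led by Glra1, Baiap3 and Ebf2 that stayed unnamed. Ago2 was at 106 and 102 CPM in the KO glutamatergic sums and 72.4 and 78.2 CPM in the WT ones. Where the counted 3′ reads lie relative to the deleted stretch was not examined, so these counts do not check the deletion. CPM is the number of UMIs of a gene per 1000000 UMIs of the summed nuclei of a class in 1 library. The labels do not say whether the libraries of a genotype came from separate animals, and p-values then measure only the spread between these libraries.

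Grin1 averaged between 322 and 709 CPM in the neuronal classes and between 43.3 and 186 CPM in glial and vascular ones, over the 18 classes with at least 20 nuclei in every library. It was highest in olfactory-type Meis2 neurons, where it reached 929 and 638 CPM in KO libraries and 677 and 593 CPM in WT libraries. In glutamatergic nuclei the values were 813 and 515 CPM in KO and 661 and 471 CPM in WT. Replicate 1 of each genotype was the higher in both classes, so the genotypes overlapped. In granule neurons of the cerebellum Grin1 was at 588 and 429 CPM in KO and 523 and 392 CPM in WT, with the same order of replicates. Across the 18 classes, 15 of the 17 neighbouring steps in the order of Grin1 levels overlapped between libraries.

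Among the same classes Grin2a was highest in upper-layer glutamatergic nuclei, at 1834 and 2060 CPM in KO libraries and 2112 and 2191 CPM in WT libraries. Mature cerebellar granule neurons held 1301 and 1321 CPM in KO and 1377 and 1325 CPM in WT. In immature granule neurons, the younger cells of the same lineage, Grin2a was at 729 and 874 CPM in KO and 766 and 812 CPM in WT. Every library was thus higher in mature than in immature granule neurons. The 2 genotypes overlapped in the immature nuclei, and in the mature ones both KO values lay slightly below both WT values (log2 change -0.04, SE 0.102).

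Grin2b ran the other way along that lineage. It was at 464 and 373 CPM in KO and 320 and 301 CPM in WT mature granule neurons. In immature granule neurons it was at 1162 and 1343 CPM in KO and 1468 and 1282 CPM in WT, above the mature nuclei in all 4 libraries. The highest levels were in olfactory-type Meis2 neurons, with 2072 and 2087 CPM in KO and 2091 and 2002 CPM in WT, and these values overlapped those of upper-layer glutamatergic nuclei. Glutamatergic nuclei were at 1824 and 1940 CPM in KO and 2021 and 1913 CPM in WT. Granule nuclei yielded 0.819 UMIs of Grin2b per nucleus, against 0.525 in oligodendrocytes, 0.66 in meningeal fibroblasts, 0.731 in endothelial nuclei and 1.09 in microglia, types in which little Grin2b is known. The part of RNA free in the suspension in the low granule and glial counts was not tested.

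Grin2c had 2 high classes among the 18, granule neurons and astrocytes, and no library of another class reached them. In granule neurons it was at 162 and 160 CPM in KO libraries and 172 and 161 CPM in WT libraries. In immature granule neurons it was at 13.1 and 18.9 CPM in KO and 21.2 and 22.8 CPM in WT, below the mature nuclei in all 4 libraries. Astrocytes held 123 and 123 CPM in KO and 164 and 147 CPM in WT. Thinned shares, here and below, are of nuclei with at least 1000 UMIs, and shallower nuclei are left out of them. After thinning to 1000 UMIs, Grin2c had a UMI in 14.8% of granule nuclei and 11.7% of astrocytes. It had a UMI in 0.76% of glutamatergic nuclei and 0.51% of endothelial nuclei, all as means over the 4 libraries. Without thinning it had a UMI in 24.8% to 34.2% of granule nuclei, whose median depth lay between 1793 and 2492 UMIs by library, and in 19.4% to 29.4% of astrocytes, with median depths of 1769 to 2467 UMIs. In endothelial nuclei, with median depths of 1485 to 2210 UMIs, the shares without thinning were 0% to 3.92%.

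Grin2d was low throughout and was highest in the thalamic or midbrain cluster, at 97.8 and 101 CPM in KO libraries and 83.7 and 74.6 CPM in WT libraries. That cluster held only 15 nuclei in KO replicate 1 and was not tested. Cerebellar inhibitory interneurons held 67.3 and 81.5 CPM in KO and 80.3 and 86.0 CPM in WT. In Lhx6 and Sst interneurons Grin2d was at 57.8 and 56.0 CPM in KO and 83.7 and 66.5 CPM in WT. It averaged 22.4 CPM in glutamatergic nuclei, 9.3 CPM in granule neurons and 4.8 CPM in astrocytes.

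Grin3a was highest in a glial and an interneuron class among the 18, and their order differed between genotypes. Oligodendrocyte precursor cells (OPC) held 753 and 688 CPM in KO libraries and 582 and 617 CPM in WT libraries. In Lhx6 and Sst interneurons it was at 591 and 297 CPM in KO and 715 and 652 CPM in WT. Both WT values lay above both KO values there, and KO replicate 2 was the lowest. In KO libraries OPC were above these interneurons on average (720 against 444 CPM), and in WT libraries below them (600 against 684 CPM). Astrocytes held 345 and 289 CPM in KO and 371 and 320 CPM in WT, while glutamatergic nuclei held 147 and 109 CPM in KO and 104 and 95.5 CPM in WT. After thinning to 1000 UMIs, Grin3a had a UMI in 44.8% of OPC, 28.1% of Lhx6 and Sst interneurons and 23.6% of astrocytes, against 6.45% of endothelial nuclei. Without thinning, the share in OPC was 67.5% to 76.7% at median depths of 2188 to 2906 UMIs, and in endothelial nuclei it was 5.88% to 16%.

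The neighbouring classes in the order of levels overlapped at most steps. For Grin2a 14 of 17 steps overlapped, and for Grin2b, Grin2c, Grin2d and Grin3a 16 of 17 did. The order within the upper or lower part of each list is therefore not resolved by 4 libraries.

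**Figure D1:**
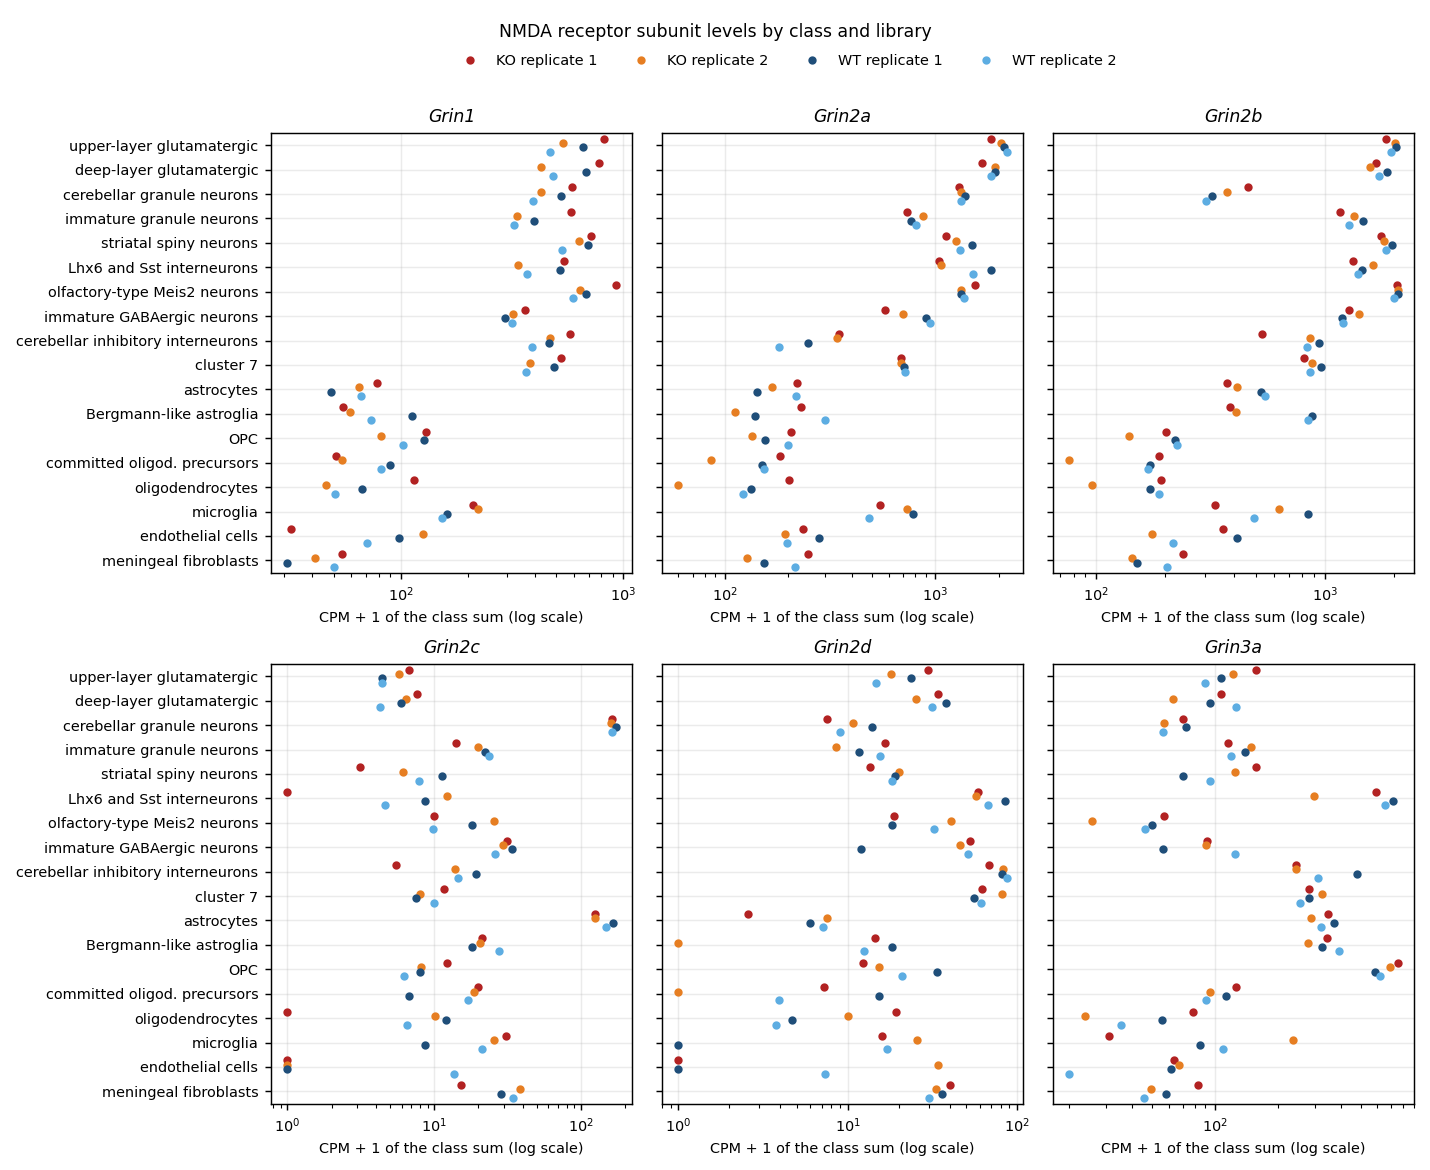
Level of each of the 6 NMDA receptor subunit genes in each class, with 1 point per library (CPM + 1 of the class sum, log axis; KO libraries and WT libraries in separate colours). Grin2c stands at 162 and 160 CPM in KO and 172 and 161 CPM in WT granule neurons, and Grin3a at 753 and 688 CPM in KO and 582 and 617 CPM in WT OPC, while KO and WT points mostly lie together.

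The class contrasts compared 2 classes inside the same 4 libraries, with library as a block. GABAergic nuclei and glutamatergic nuclei differed in all 6 subunit genes, against 37.8% of the 10762 genes tested (edgeR, Benjamini-Hochberg adjusted p under 0.05). Grin3a was higher in GABAergic nuclei by 0.80 on the log2 scale (SE 0.133, adjusted p = 2.07e-05), Grin2d by 0.86 (SE 0.157) and Grin2c by 1.35 (SE 0.264). The Grin2c difference rests on low counts, a mean of 12.4 CPM (101 UMIs) in GABAergic and 4.46 CPM (50 UMIs) in glutamatergic nuclei. Meningeal fibroblasts held 28.2 CPM, microglia 20.6 CPM, oligodendrocytes 6.39 CPM and endothelial nuclei 3.17 CPM. The part of RNA free in the suspension in these low counts was not tested. Grin2a was lower in GABAergic nuclei, with a log2 difference of -0.96 (SE 0.0715, adjusted p = 2.3e-11). Grin2b and Grin1 were also lower there, with log2 differences of -0.38 (SE 0.0698) and -0.24 (SE 0.073). The Grin3a level was uneven over the GABAergic clusters, with means of 564 CPM in Lhx6 and Sst interneurons and 319 CPM in cerebellar inhibitory interneurons, against 111 CPM in striatal spiny, 89.8 CPM in immature GABAergic and 43.7 CPM in Meis2 neurons. Without the Lhx6 and Sst cluster it averaged 126 CPM in GABAergic nuclei, against 114 CPM in glutamatergic nuclei, and in KO libraries alone it was below the glutamatergic mean of 128 CPM. The Grin3a difference was not past the threshold with DESeq2, and the Grin1 difference was not without WT replicate 1.

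Granule neurons differed from glutamatergic nuclei in all 6 genes as well, against 57.5% of 10672 genes. Grin2c was higher in granule neurons, by 5.20 on the log2 scale (SE 0.15, adjusted p = 2.07e-19), and the other 5 were lower. Grin2b had the largest of these lower values, a log2 difference of -2.52 (SE 0.118, adjusted p = 9.66e-16), against -0.69 for Grin2a (SE 0.0939), -0.44 for Grin1, -1.33 for Grin2d and -0.94 for Grin3a.

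OPC and astrocytes, 2 glial classes, differed in 4 of the 5 subunit genes tested, against 43% of 7777 genes. Grin3a was higher in OPC by 1.05 on the log2 scale (SE 0.107, adjusted p = 8.96e-11), and Grin1 by 0.83. The yield of Grin1 was 0.298 UMIs per nucleus in OPC and 0.163 in astrocytes. It was 0.349 in microglia, 0.216 in oligodendrocytes, 0.211 in endothelial nuclei and 0.155 in meningeal fibroblasts. OPC thus lay below microglia and above the other classes named. The part of RNA free in the suspension in these low counts was not tested. Grin2c was lower in OPC, with a log2 difference of -4.25 (SE 0.256), and so was Grin2b, at -1.19. The log2 difference of Grin2a was -0.04 (95% interval -0.28 to 0.20, adjusted p = 0.822).

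The share of Grin2a among the summed UMIs of Grin2a and Grin2b follows the maturation pair within the same nuclei. It is a ratio of counts of 2 genes of like genomic length, but their longest transcripts differ, at 14634 nt for Grin2a and 24060 nt for Grin2b. The share is therefore compared here only across classes and genotypes. In granule neurons it was 73.7% and 78.0% in KO libraries and 81.1% and 81.5% in WT libraries. In immature granule neurons it was 38.5% and 39.4% in KO and 34.3% and 38.8% in WT. The share was higher in mature than in immature granule neurons in 4 of 4 libraries, by a mean of 40.8 percentage points (SD 5.06, n = 4; exact paired permutation test, two-sided, p = 0.125, the smallest that 4 libraries allow).

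Both KO granule shares lay below both WT shares, 75.8 ± 2.99% in KO against 81.3 ± 0.242% in WT (SD, n = 2 each). The exact permutation p was 0.333, which is the smallest that 2 against 2 libraries can give, so no genotype difference in the share could pass a threshold in this design. The granule share also rests on low Grin2b counts, 0.819 UMIs per nucleus against 1.09 in microglia and 0.731 in endothelial nuclei. The part of RNA free in the suspension in them was not tested. Glutamatergic nuclei were at 49.7% and 51.2% in KO and 50.7% and 52.7% in WT, and these overlapped, although the upper-layer cluster alone, at 49.7% and 50.4% in KO and 50.7% and 52.8% in WT, did not. GABAergic nuclei were at 39.9% and 38.4% in KO and 42.5% and 43.6% in WT, a difference of -3.92 points. Without the Lhx6 and Sst cluster the difference over the remaining GABAergic nuclei was -0.88 points.

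Within GABAergic clusters the share moved both ways. In Lhx6 and Sst interneurons it was 44.1% and 39.6% in KO libraries and 55.8% and 51.9% in WT libraries. In immature GABAergic neurons it was 31.1% and 33.1% in KO and 43.2% and 44.1% in WT. In cerebellar inhibitory interneurons it was 39.5% and 28.2% in KO and 20.9% and 17.7% in WT. KO was below WT without overlap in the first and second of these clusters and above WT without overlap in the third. Striatal spiny neurons, at 38.9% and 40.8% in KO and 43.0% and 41.5% in WT, were also below without overlap, and Meis2 neurons, at 42.7% and 38.8% in KO and 38.7% and 40.5% in WT, overlapped. For the 4 clusters without overlap each exact permutation test gave p = 0.333, the smallest possible. In cerebellar inhibitory interneurons the share rests on a mean of 0.827 Grin2a UMIs per nucleus, against 1.21 in microglia and 0.664 in meningeal fibroblasts.

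**Figure D2:**
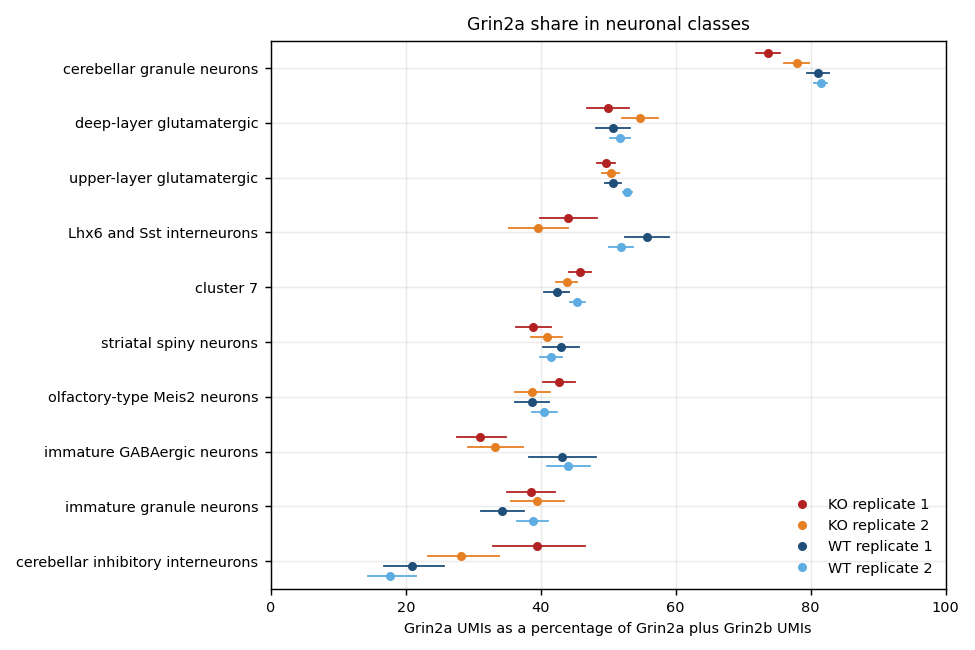
Grin2a UMIs as a percentage of Grin2a plus Grin2b UMIs in neuronal classes, with 1 point per library and KO and WT in separate colours; horizontal bars are 95% binomial intervals, which cover counting error only. Granule neurons lie at 73.7% and 78.0% in KO and 81.1% and 81.5% in WT, far to the right of immature granule neurons at 38.5% and 39.4% in KO and 34.3% and 38.8% in WT.

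The comparison of KO with WT asks whether a deletion of Ago2 directed at Vglut2-lineage neurons changed the subunit genes, in those neurons or elsewhere. Over 18 classes that share no nuclei, 83 of the 108 pairs of a subunit gene and a class had enough counts to be tested, and 1 pair was called, with edgeR and also with DESeq2. At an unadjusted p under 0.05 there were 11 pairs with edgeR, or 13.3%, against 5.87% of all gene and class pairs. With DESeq2 there were 7, or 8.43%, against 1.65% of all pairs. Those 25 pairs that were not tested had too few counts.

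The background of calls was low in nearly every class. The share of tested genes that passed was 0% in olfactory-type Meis2 neurons, deep-layer glutamatergic nuclei, granule neurons, immature granule neurons, microglia, meningeal fibroblasts, cerebellar inhibitory interneurons, committed oligodendrocyte precursors, cluster 7 and GABAergic nuclei as a whole. It was 0.00959% in upper-layer glutamatergic nuclei, 0.018% in glutamatergic nuclei as a whole, 0.0203% in immature GABAergic neurons, 0.0458% in striatal spiny neurons, 0.0706% in Lhx6 and Sst interneurons and 0.0112% in the GABAergic clusters outside the spiny and the Lhx6 and Sst clusters. Without the Lhx6 and Sst cluster alone it was 0.00964% in GABAergic nuclei. Among other cells it was 0.521% in OPC, 0.155% in astrocytes, 0.162% in oligodendrocytes, 0.0416% in endothelial cells and 7.94% in Bergmann-like astroglia.

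No subunit gene was called in glutamatergic nuclei. The log2 change of Grin2a was -0.17 (SE 0.15, 95% interval -0.47 to 0.12) and that of Grin2b was -0.11 (SE 0.143, -0.39 to 0.18). Grin1 had a log2 change of 0.19 (SE 0.199, -0.20 to 0.58) and Grin2d of 0.20 (SE 0.296, -0.38 to 0.78), and both turned negative without KO replicate 1 or without WT replicate 2. The log2 change of Grin3a was 0.31 (SE 0.163, unadjusted p = 0.082), with both KO values above both WT values. Grin2c was too low to be tested there, with 10 and 9 UMIs in KO and 8 and 23 UMIs in WT. In cluster 7, where Slc17a6 was at 95.7 and 78.1 CPM in KO and 62.7 and 61.2 CPM in WT, Grin2a had a log2 change of -0.06 (-0.26 to 0.13) and Grin2b of -0.11 (-0.33 to 0.10). These intervals leave room for changes of that size, and a p that misses the threshold does not show equal levels. The KO means in cluster 7 were above the WT means for Grin3a (304 against 268 CPM) and Grin2d (70.5 against 57.4 CPM), without overlap. They were also above for Grin1 (454 against 426 CPM) and Grin2c (8.80 against 7.76 CPM), with overlap. No gene passed the threshold in that cluster.

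Grin3a had 4 changes with an unadjusted p under 0.05, positive in upper-layer and striatal spiny neurons and negative in 2 interneuron classes. In upper-layer glutamatergic nuclei it was at 155 and 121 CPM in KO and 106 and 89.0 CPM in WT, a log2 change of 0.47 (SE 0.169, unadjusted p = 0.0164, adjusted p = 0.841). In striatal spiny neurons it was at 156 and 124 CPM in KO and 69.4 and 94.0 CPM in WT, a log2 change of 0.64 (SE 0.224, adjusted p = 0.69). In Lhx6 and Sst interneurons the log2 change was -0.66 (SE 0.263, adjusted p = 0.931). In cerebellar inhibitory interneurons Grin3a was at 242 and 245 CPM in KO and 478 and 310 CPM in WT, a log2 change of -0.73 (SE 0.241, adjusted p = 0.924). None of the 4 changes passed the threshold. These 4 classes were picked by an unadjusted p from the same libraries, so the lack of overlap between their groups adds no support.

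Grin2a and Grin2b had changes of the same kind, past an unadjusted p of 0.05 and not past the threshold. Grin2a was at 1044 and 1064 CPM in KO and 1837 and 1513 CPM in WT Lhx6 and Sst interneurons, a log2 change of -0.72 (SE 0.211, adjusted p = 0.688). In immature GABAergic neurons it was at 578 and 703 CPM in KO and 905 and 947 CPM in WT (log2 change -0.56, SE 0.21, adjusted p = 0.999). In cerebellar inhibitory interneurons it was at 346 and 339 CPM in KO and 248 and 179 CPM in WT (log2 change 0.64, SE 0.226, adjusted p = 0.924). Per nucleus these were 0.846 and 0.940 UMIs in KO and 0.883 and 0.637 UMIs in WT, which overlapped. Median depths were 1957 and 2363 UMIs in KO and 3044 and 3287 UMIs in WT. The mean yield was 0.827 UMIs of Grin2a, against 1.21 in microglia, 0.664 in meningeal fibroblasts and 0.579 in endothelial nuclei. The log2 change of Grin2b was 0.44 in granule neurons (SE 0.136, adjusted p = 0.564) and -0.42 in OPC (SE 0.205, adjusted p = 0.756). Per nucleus Grin2b yielded 0.819 UMIs in granule neurons and 0.543 in OPC, against 1.09 in microglia and 0.525 in oligodendrocytes. The part of RNA free in the suspension in these low counts was not tested.

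**Figure D3:**
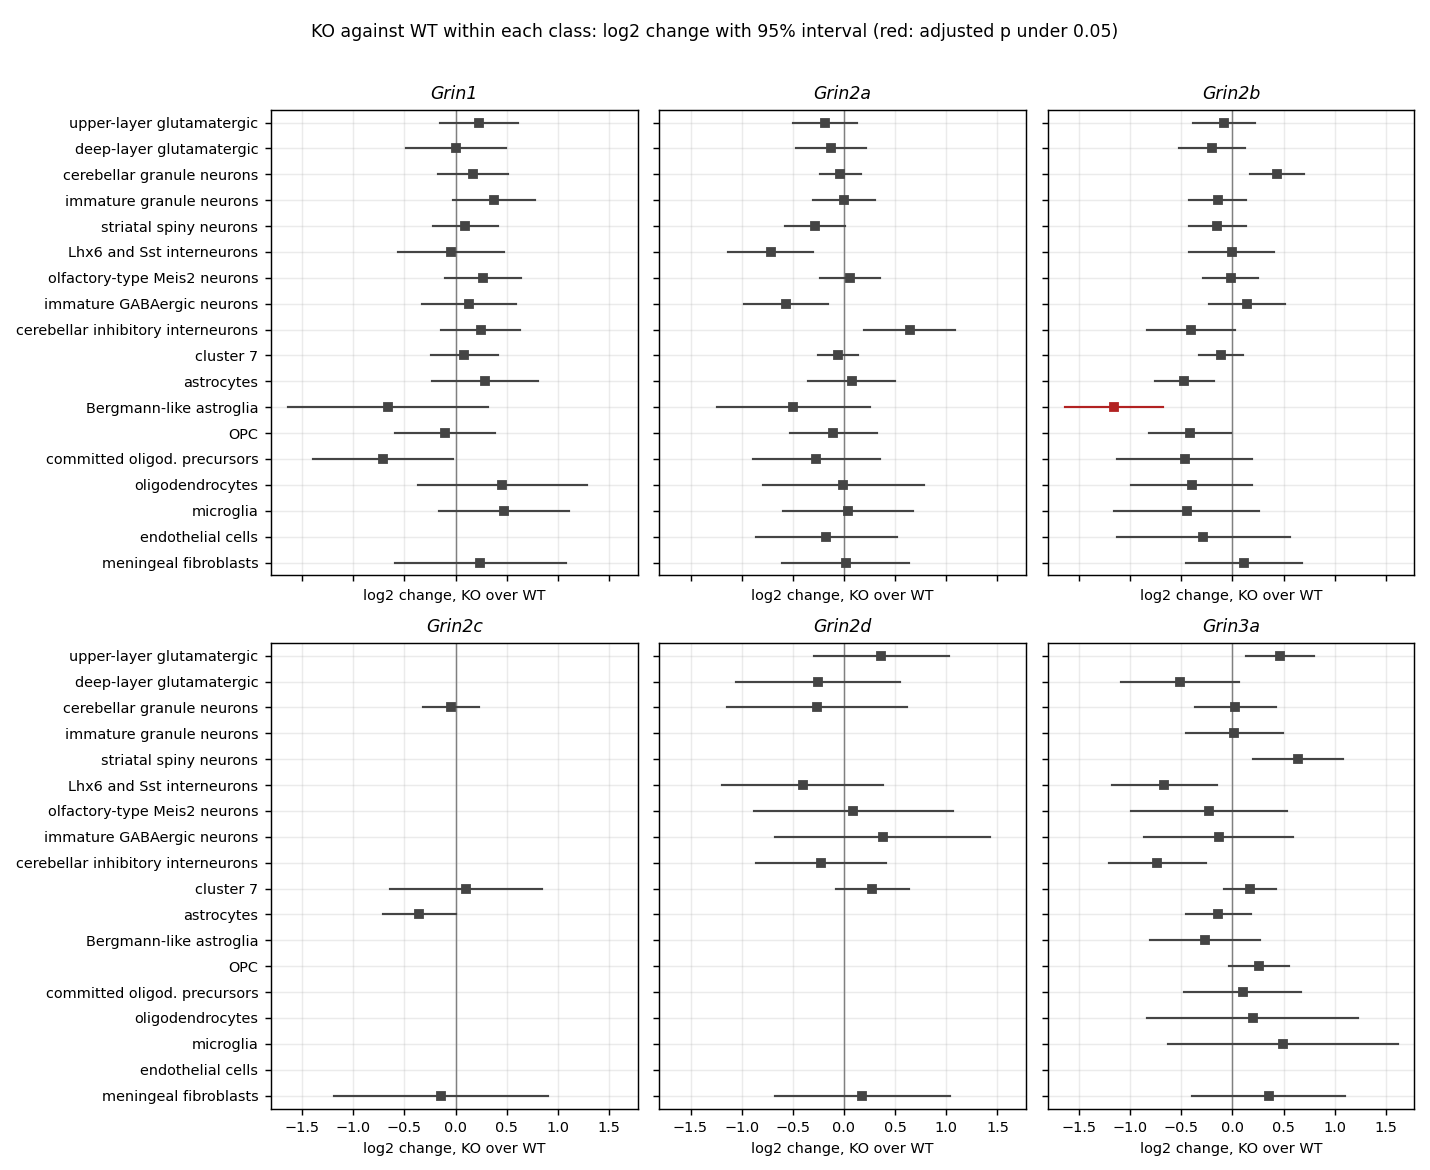
KO against WT log2 change of each subunit gene in each class from edgeR, with an approximate 95% interval from its SE and a normal quantile. Red marks an adjusted p under 0.05. The 1 red point among these classes is Grin2b in Bergmann-like astroglia at -1.16, and most intervals cross 0.

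Across GABAergic nuclei as a whole, the log2 change of Grin3a was -0.74 (SE 0.175, unadjusted p = 0.0016, adjusted p = 0.999). The change in GABAergic nuclei less that in glutamatergic nuclei, tested as an interaction, was -1.05 (SE 0.16, 95% interval -1.37 to -0.74, adjusted p = 0.000878), where 0.111% of 11694 genes passed. The same difference was -0.06 for Grin2a (SE 0.137), 0.10 for Grin2b (SE 0.134) and 0.03 for Grin1 (SE 0.141), none past the threshold. The Grin3a call was lost without WT replicate 2 (-0.92, adjusted p = 0.119) and with DESeq2 (-1.05, adjusted p = 0.192).

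The make-up of GABAergic nuclei moved with this result. Lhx6 and Sst interneurons, the GABAergic cluster richest in Grin3a, numbered 59 and 37 nuclei in KO libraries and 58 and 149 in WT libraries, or 10.9% and 7.84% of GABAergic nuclei in KO and 13.6% and 18.5% in WT. They gave 42.1% and 24.8% of the GABAergic Grin3a UMIs in KO and 50% and 68.4% in WT. Without that cluster the log2 change of Grin3a over the remaining GABAergic nuclei was -0.21, and the interaction was -0.48 (adjusted p = 0.606). Inside the cluster the identity genes also differed between libraries, since Sst was at 480 and 67.2 CPM in KO and 312 and 112 CPM in WT, and Adarb2, a marker of another interneuron family, was at 3528 and 8140 CPM in KO and 6096 and 4546 CPM in WT. No separate class of the Adarb2 family formed, so this cluster, named by its Lhx6 and Sst markers, may hold nuclei of both families. The part of the mix of subtypes in the change inside the cluster was not tested.

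**Figure D4:**
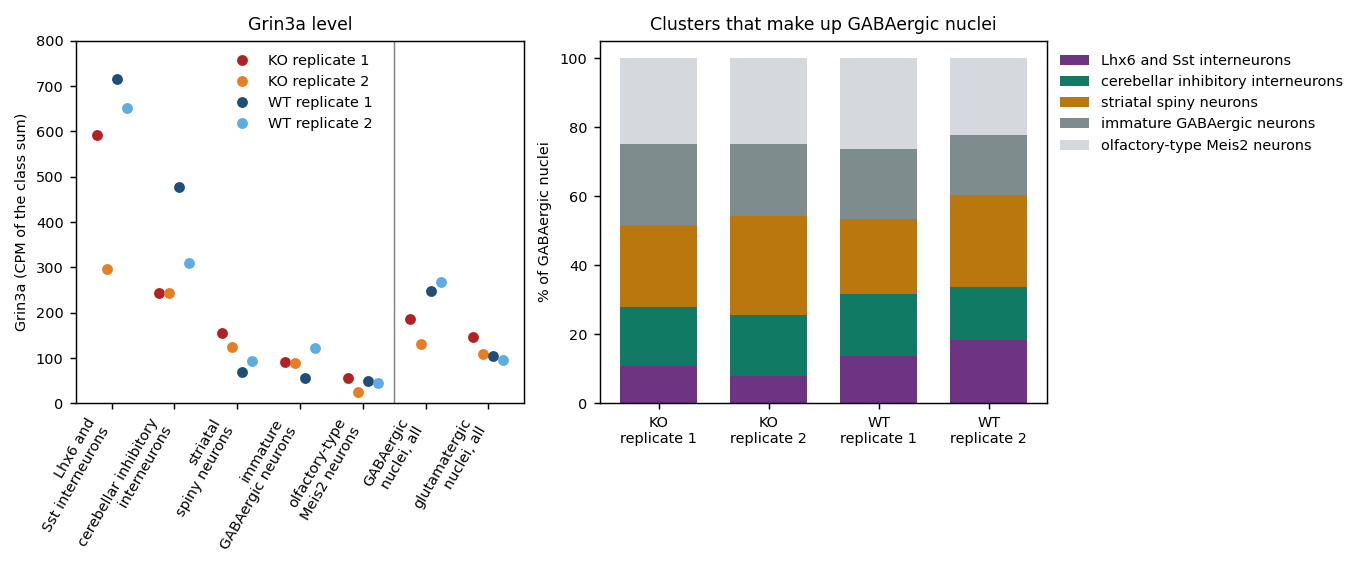
Left: Grin3a level (CPM of the class sum) in glutamatergic nuclei, GABAergic nuclei and their clusters, 1 point per library, KO left of WT. Right: the percentage of GABAergic nuclei that each cluster held in each library; Lhx6 and Sst interneurons held 10.9% and 7.84% in KO and 13.6% and 18.5% in WT.

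The 1 called pair was Grin2b in Bergmann-like astroglia, the Gdf10 and Pax3 astroglia of the cerebellum. It was at 384 and 408 CPM in KO libraries (57 and 63 UMIs) and 883 and 845 CPM in WT libraries (103 and 222 UMIs), a log2 change of -1.16 (SE 0.245, adjusted p = 0.00231). In this fit 7.94% of the 3374 genes tested were called, the highest share of any class. The class also held nuclei with ependymal markers in unequal numbers. The summed level of 7 ependymal markers was 2364 and 2776 CPM in KO, with 7 of 7 detected in both, and 68.6 and 107 CPM in WT, with 5 and 6 detected. A finer clustering set apart 9 and 11 ependymal nuclei in KO and 1 and 2 in WT, all from within this class.

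Without these nuclei Grin2b was at 551 and 557 CPM in KO and 898 and 852 CPM in WT. The groups still did not overlap, but the log2 change was -0.72 (SE 0.27, adjusted p = 0.427), and 0.43% of 2324 genes were called. This alternative was chosen after seeing the data. The call was also lost without WT replicate 1 (adjusted p = 0.0949) and without WT replicate 2 (adjusted p = 0.395). In astrocytes Grin2b was at 375 and 413 CPM in KO and 528 and 549 CPM in WT, without overlap. The log2 change there was -0.47 (SE 0.147, edgeR adjusted p = 0.333). A lack of overlap between 2 and 2 libraries adds no support in either class, since an exact permutation test gives at best p = 0.333. The log2 changes of 2 further genes in astrocytes were -0.35 for Grin2c (SE 0.184) and -0.14 for Grin3a (SE 0.161). Astrocytes yielded 1.2 UMIs of Grin2b per nucleus, against 1.09 in microglia, 0.731 in endothelial nuclei, 0.66 in meningeal fibroblasts and 0.525 in oligodendrocytes.

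**Figure D5:**
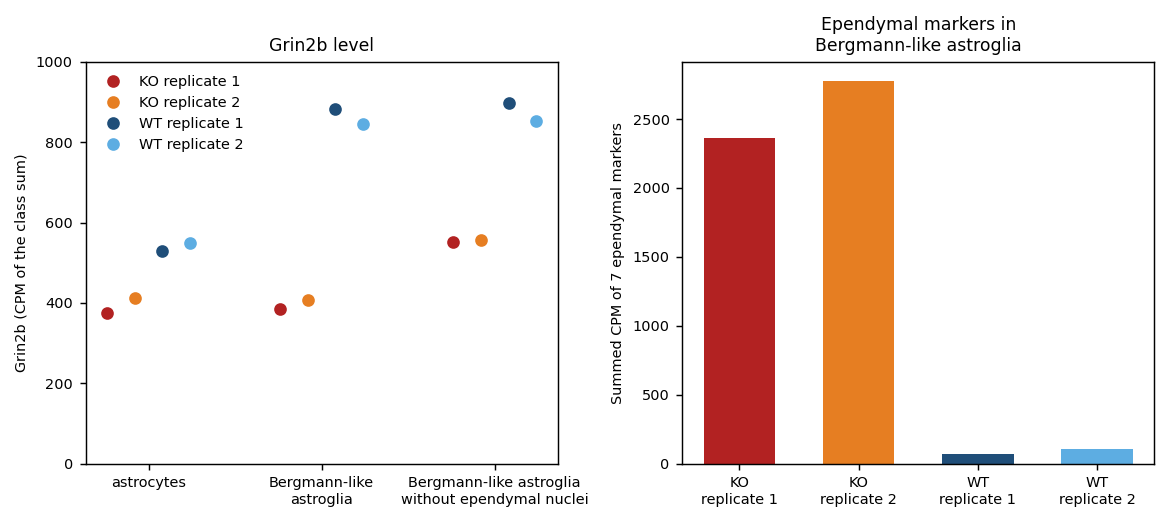
Left: Grin2b level (CPM of the class sum) in astrocytes, in Bergmann-like astroglia and in the same astroglia without ependymal nuclei, 1 point per library, KO left of WT. Right: summed CPM of 7 ependymal markers in Bergmann-like astroglia, 2364 and 2776 in KO against 68.6 and 107 in WT.

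A list of 38 partner genes covered scaffolds, kinases and phosphatases, exchange factors, auxiliary proteins and genes of the supply of the co-agonists glycine and D-serine. None of the partner genes was called between KO and WT in glutamatergic nuclei, GABAergic nuclei, granule neurons or astrocytes. In glutamatergic nuclei 20 of 36 tested had a positive and 16 a negative log2 change, with a median of 0.05 against -0.003 over all genes. In GABAergic nuclei the counts were 23 and 12 of 35, in granule neurons 20 and 13 of 33, and in astrocytes 12 and 20 of 32, with medians of 0.06, 0.05 and -0.11 against -0.004, -0.005 and -0.007 over all genes. Over all genes tested, 49.3% had a positive change in GABAergic nuclei, 49.3% in granule neurons and 49.0% in astrocytes.

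Partner genes with the smallest p are named for each class. In glutamatergic nuclei these included Neto1, an auxiliary transmembrane protein, and Dlg2, which encodes the scaffold PSD-93. Neto1 was at 198 and 221 CPM in KO and 244 and 265 CPM in WT (log2 change -0.32, SE 0.15, adjusted p = 0.945), and Dlg2 had a log2 change of -0.27. In GABAergic nuclei they were Ephb2, a receptor tyrosine kinase, at a log2 change of 0.34, Rasgrf1, an exchange factor, at 0.27, and Nos1, the neuronal nitric oxide synthase, at 0.42. In granule neurons they included Lrp8, a reelin receptor, at 266 and 214 CPM in KO and 183 and 149 CPM in WT (log2 change 0.55, SE 0.161, adjusted p = 0.508), and Dlgap1, a scaffold-associated protein, at 0.24. In astrocytes they were Ephb2 at 1.00, the scaffold Shank3 at -0.66 and the scaffold Dlg3 at 0.72. These astrocyte changes rest on few UMIs. Ephb2 had 24 and 36 UMIs in KO and 15 and 32 in WT. Shank3 had 27 and 23 UMIs in KO and 50 and 72 in WT, and Dlg3 had 27 and 25 in KO and 25 and 23 in WT.

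A pair of partner genes passed the threshold in other classes; they are named here after their values were seen. Nos1 was higher in KO Lhx6 and Sst interneurons, with 42 and 25 UMIs (187 and 140 CPM) in KO and 9 and 56 UMIs (34.2 and 50.3 CPM) in WT, a log2 change of 1.78 (SE 0.336, adjusted p = 0.0347). The call was lost with DESeq2, without KO replicate 1, without WT replicate 1, with doublets kept and with the subunit genes among those clustered on. Nos1 marks a subset of Sst interneurons, and the cluster's Sst and Adarb2 values given above also differed between libraries. In Bergmann-like astroglia, where 7.94% of 3374 genes were called, the scaffold gene Shank2 was higher in KO. It had 79 and 57 UMIs in KO and 8 and 13 UMIs in WT, a log2 change of 2.95 (SE 0.364, adjusted p = 3.8e-06). That call was lost without WT replicate 2, with doublets kept, with up to 10% mitochondrial UMIs and at Leiden resolution 2. Without the ependymal nuclei its counts were 20 and 5 UMIs in KO and 8 and 9 UMIs in WT, overlapping and too low to be tested.

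The genes whose levels ran most like each subunit gene over the 28 clusters were found by Pearson correlation of mean log2(CPM + 1) among 10139 genes. The clusters share libraries and differ in depth, so the correlations are descriptions. Grin1 ran most like Sptbn4 (r = 0.94), Pacsin1 and Snhg14. Grin2a ran most like Svop (r = 0.92), Syt1 and Celf5, and Grin2b most like B230334C09Rik (r = 0.92), 5330417C22Rik and Jph4. The likeness was weaker for Grin2c, whose nearest were Mxd1 (r = 0.75), Srek1ip1 and Ptpn3, for Grin2d, with Mllt11 (r = 0.80), Usp29 and Aff2, and for Grin3a, with Ptprt (r = 0.79), Brinp3 and Grid1.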

How the data were processed

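Nuclei were sequenced on 10x 3′ libraries, and per the submitters' processing notes Cell Ranger 4.0.0, Seurat 3.2.3 and the build GRCm38 were used. The deposited values are raw UMI counts per gene and barcode for each of the 4 libraries, and the authors' matrices were used without change. Barcodes with under 500 UMIs, or with 5% or more mitochondrial UMIs (198 and 213 in KO, 722 and 593 in WT), were left out. Doublet scores were computed per library and the top 0.8% per 1000 barcodes removed (93 and 91 in KO, 109 and 333 in WT), because the caller's own threshold marked only 1 or 2 barcodes per library. The libraries shared 30 barcodes. Nuclei were clustered with scanpy 1.11.5 (2000 variable genes without the 6 subunit genes, 30 components, 15 neighbours, Leiden resolution 1), and clusters were named from marker lists. Counts were summed per library and class and tested with edgeR 4.0.16 (filterByExpr, TMM, quasi-likelihood, Benjamini-Hochberg over all genes of a fit, threshold 0.05) in R 4.3.3, where each library held at least 20 nuclei. DESeq2 1.42.0, no filter, leaving out each library, a replicate block, doublets kept, up to 10% mitochondrial UMIs, resolution 2 and clustering with the subunit genes were the alternatives. Scripts were tested on simulated data. The named genes are all 6 subunit genes, the partner genes past the threshold or with the 3 smallest p in 4 classes, and 3 like genes per subunit gene. One gene that this rule names is not reported here. The genes, lists and tests were chosen with earlier results of these data known. Replicate numbers are not stated to pair libraries, and same-numbered libraries did not deviate together. Binomial intervals of shares cover counting error only, and cluster 5, of low depth, and classes with fewer nuclei were not tested.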

Additional observations from a re-analysis of the deposited data

Results flagged for a closer look

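The change of Grin3a between KO and WT differed between GABAergic and glutamatergic nuclei, by -1.05 on the log2 scale (SE 0.16; edgeR adjusted p = 0.000878), and this is singled out because the difference itself was tested. Grin3a was at 186 and 130 CPM in KO and 248 and 269 CPM in WT GABAergic nuclei, lower in 2 of 2 KO libraries than in either WT library, and at 147 and 109 CPM in KO and 104 and 95.5 CPM in WT glutamatergic nuclei, higher in 2 of 2. Without the Lhx6 and Sst cluster the difference was -0.48 (adjusted p = 0.606).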

How the results depend on the processing

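Of 280 counts of called subunit genes under another setting, 269 were equal to the reported count or within 1.5 times of it, and 11 moved. Between KO and WT, 21 of the 22 classes fitted, some of which share nuclei, had 0 called subunit genes as reported. Agreement in those classes is of 0 with 0. For the difference of the Grin3a change between GABAergic and glutamatergic nuclei the count was 1, and it was 0 with DESeq2 and without the Lhx6 and Sst cluster; leaving out a library gave 0 to 1, with 0 without WT replicate 2. In GABAergic nuclei the count was 0, and it was 1, Grin3a, without a filter on low counts (adjusted p = 0.00977) and 0 to 1 over the left-out libraries, with 1 without KO replicate 1 (adjusted p = 0.00219). In Bergmann-like astroglia the count was 1, and it was 0 with doublets kept, with up to 10% mitochondrial UMIs, at resolution 2 and without ependymal nuclei, and 0 to 1 over the left-out libraries; the log2 change of Grin2b lay between -1.19 and -0.61 under the settings that lost the call. The cause of these moves was not tested. The log2 changes of named genes kept their direction in 264 of 268 settings. In glutamatergic nuclei Grin1 was at -0.13 without KO replicate 1 and -0.01 without WT replicate 2, and Grin2d at -0.12 and -0.10; over the left-out libraries they ranged up to 0.44 and 0.47. With a replicate block the Grin3a interaction was -1.05 (adjusted p = 0.000908) and no count of called subunit genes changed; the numbers are not stated to pair libraries, and same-numbered libraries had correlations of deviations between -0.059 and 0.077 in 4 classes. The 8 levels recomputed at resolution 2 all stayed within 1 SD. No Lhx6 and Sst class formed with up to 10% mitochondrial UMIs, and no Bergmann-like class with the subunit genes in the clustering. Most of the 25 pairs of a gene and a class that were not tested, for low counts, were of Grin2c and Grin2d.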

Other observations

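The highest level of Grin3a was in cluster 26, which was led by Frzb, Fabp7, Sntb1, Col5a2 and Hey2 and stayed unnamed. It held 16 and 16 nuclei in KO libraries and 31 and 37 in WT libraries, too few for a test. Grin3a was at 3967 and 1035 CPM in KO and 2131 and 2430 CPM in WT there, and KO replicates 1 and 2 gave the highest and the lowest of the 4 values. After thinning to 1000 UMIs it had a UMI in a mean of 58.2% of the nuclei with at least that depth. Sox10, a transcription factor of glia, was at 263 and 550 CPM in KO and 388 and 309 CPM in WT in the same cluster.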
